A study of Mus musculus with 4 samples.

Results

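The genes of the caveola coat were examined in visceral (epididymal) fat of mice fed a high-fat diet that differed in dietary history. The 6 genes, a set named for the structure their proteins build, were taken by name: Cav1 and Cav2, Cavin1, Cavin2 and Cavin3 (listed under the older symbols Ptrf, Sdpr and Prkcdbp) and Ehd2. All 6 were found among the 24421 genes of the deposited matrices, and all 6 passed the filter on low values. The mice were wild-type (WT) C57BL/6J males. Weight-cycled mice (WC1) were put on high-fat diet (HFD) at 8 weeks of age for 8 weeks, then given standard diet for 2 weeks and returned to HFD for 6 weeks. Control mice (Ctrl) were on HFD without a break for 14 weeks, starting at 10 weeks of age. HFD feeding came to 14 weeks in both groups, and tissue was taken at 24 weeks of age. There were 2 poly(A) RNA-seq libraries per group, named here Ctrl 1, Ctrl 2, WC1 1 and WC1 2. The labels do not say whether each library came from a single mouse.

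Caveolae are flask-shaped pits of the plasma membrane that are rich in cholesterol. Caveolins form the membrane-embedded scaffold of the pit, cavins coat it from the cytosol, and the ATPase EHD2 sits at its neck and holds it at the cell surface. Adipocytes, endothelial cells and smooth muscle cells are the cells known for the densest caveolae. In adipocytes caveolae are known for taking part in insulin signalling, in lipid uptake and in buffering membrane tension as the cell swells. Loss of caveolin-1 or cavin-1 causes lipodystrophy in mice and humans.

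Between 61465029 and 90965297 reads per library were recovered from the deposited values. Values are given as CPM, taken here to be reads scaled to a rescaled library size, or as TPM. TPM is also corrected for transcript length and is used wherever different genes are compared. Fold changes are WC1 minus Ctrl on the log2(CPM + 1) scale from limma, a linear model fitted across all 14106 tested genes. They are given with their standard error (SE), and p values were adjusted by Benjamini-Hochberg over all tested genes with a threshold of 0.05. Markers of epididymal epithelium were at 0 in every library for 4 of 5 genes, and the last, Defb20, reached 0.115 CPM in WC1 1. The adipocyte hormone gene Lep was between 1408 and 4679 CPM.

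The genes lie on 4 chromosomes (mouse GRCm38, the assembly also called mm10, GENCODE M21). Cav2 (chr6:17281185-17289115, plus strand, 3 exons) and Cav1 (chr6:17306335-17341452, plus strand, 3 exons) are neighbours, with 17219 bases between them. Cavin1 lies at chr11:100956733-100970887 (minus strand, 2 exons) and Cavin2 at chr1:51289126-51302960 (plus strand, 2 exons). Cavin3 (chr7:105480083-105482300, minus strand, 2 exons) and Ehd2 (chr7:15946958-15967567, minus strand, 6 exons) are on the same chromosome, far apart. An antisense gene, Gm15581, overlaps both Cav2 and Cav1 and is not among the genes of the matrices. The antisense gene 9330175M20Rik overlaps Cavin2 and held 0, 0, 4 and 6 reads in Ctrl 1, Ctrl 2, WC1 1 and WC1 2, against 16943 or more reads of Cavin2 in each library. The gene model Gm45667 lies over Cavin3 on the other strand and is likewise not among the genes of the matrices. These overlaps are of whole gene spans, and shared exons were not looked for. No source used here says whether reads were counted by strand, so reads from any shared exon cannot be told apart.

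A window of 250 bases before the annotated start was available for 5 of the 6 genes, with none for Cavin3. It is shown for Cav1, Cav2 and Cavin2. The caveolins are neighbours, and among the 5 genes the window of Cavin2 differs most from theirs in base composition. Sequences are from RefSeq (GRCm38.p6), 5′ to 3′ on the strand of the gene, and the windows are chr6:17306085-17306334 for Cav1, chr6:17280935-17281184 for Cav2 and chr1:51288876-51289125 for Cavin2. Capitals mark 3 promoter motifs, each searched on both strands. The GC box was read as GGGCGG, the TATA box was read as TATAAA, and the third motif is the CCAAT box, searched by the letters of its name. No match overlaps another in these windows.
Cav1: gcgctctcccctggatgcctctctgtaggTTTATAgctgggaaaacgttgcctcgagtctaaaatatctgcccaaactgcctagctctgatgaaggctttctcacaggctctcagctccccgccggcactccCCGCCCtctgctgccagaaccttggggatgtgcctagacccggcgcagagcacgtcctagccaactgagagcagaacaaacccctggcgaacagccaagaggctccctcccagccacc
Cav2: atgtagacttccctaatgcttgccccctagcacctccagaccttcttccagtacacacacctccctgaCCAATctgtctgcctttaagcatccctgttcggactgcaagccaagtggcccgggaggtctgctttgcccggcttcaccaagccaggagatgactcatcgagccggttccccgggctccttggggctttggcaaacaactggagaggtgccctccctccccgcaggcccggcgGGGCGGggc
Cavin2: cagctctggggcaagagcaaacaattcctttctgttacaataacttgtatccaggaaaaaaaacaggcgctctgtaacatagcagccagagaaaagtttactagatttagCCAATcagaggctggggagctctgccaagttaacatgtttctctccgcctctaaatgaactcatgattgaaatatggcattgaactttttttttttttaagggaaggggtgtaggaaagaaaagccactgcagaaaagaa
The G and C content was 59.6% for Cav1, 62.0% for Cav2 and 40.4% for Cavin2, compared to a median of 52.4% over 32851 windows of the same length before RefSeq starts. Cav1 held 1 GC box and 1 TATA box. Cav2 held 1 GC box and 1 CCAAT box, as did Cavin1 and Ehd2, and Cavin2 held 1 CCAAT box and no GC box. The RefSeq starts used for Cavin1 and Ehd2 lie inside the gene spans given above. The windows of Cavin1 are thus within its span, and that of Ehd2 overlaps its span. A second start of Cav1 held none of the motifs. Over all windows, 32.7% held a GC box, 33.8% a CCAAT box and 12.4% a TATA box. Single GC and CCAAT boxes are thus common in such windows, and a TATA box is less so. The TATA match of Cav1 is on the opposite strand.

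The comparison asked whether a cycle of weight loss and regain goes with a different level of the genes that build caveolae. In limma, 5 of the 6 genes rose in WC1, by 1.68-fold to 1.99-fold. Over all 14106 tested genes 10.2% were called higher in WC1 and 7.71% lower, and among the 2089 genes with a mean of at least 100 CPM, a limit met by all 6, 13.4% were. The sixth gene, Cavin3, had a change of 1.56-fold and was not called. For each of the 6 genes both WC1 libraries lay above both Ctrl libraries, which was the case for 32.7% of all tested genes (69.3% had no overlap in either direction, 36.6% with WC1 lower). Tests on the recovered reads called 5 of the 6 genes in edgeR, where 10.5% of all genes were called higher, and 6 in DESeq2, where 15.1% were. In the TPM matrix 2054 of 2637 called genes were higher in WC1, beside 1443 of 2531 in CPM, and the same number of members, 5, was called. The median log2 fold change was 0.85 over the 6 genes and -0.02 over all tested genes, whose 95th percentile was 0.81. Cav1, Cavin2 and Ehd2 lay above that percentile.

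Cav1 encodes caveolin-1, the scaffold protein without which caveolae do not form in adipocytes. It was at 935.5 and 1062 CPM in Ctrl 1 and Ctrl 2 and at 1692 and 2207 CPM in WC1 1 and WC1 2. The groups did not overlap, and the lower WC1 library was 1.59 times the higher Ctrl library. Cav1 rose by a log2 fold change of 0.95 ± 0.18 (SE, n = 2 per group, limma adjusted p = 0.031), a 1.94-fold change with a 95% confidence interval of 1.41-fold to 2.67-fold.

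Cav2 encodes caveolin-2, which needs caveolin-1 to leave the Golgi and reach the cell surface. It was at 233.4 and 258.6 CPM in the Ctrl libraries and at 369.3 and 484.2 CPM in the WC1 libraries, again without overlap. Cav2 rose by 0.78 ± 0.15 on the log2 scale (adjusted p = 0.033, limma), or 1.72-fold (1.31 to 2.25). The nearest protein-coding genes on either side of the pair were also looked at, chosen by position alone. Tes, 175356 bases before Cav2 and coding for a focal adhesion protein, was at 62.5 and 67.8 CPM in Ctrl and 49.7 and 36.3 CPM in WC1, a log2 fold change of -0.60 ± 0.16 that was not called (adjusted p = 0.058, limma). Met, 122347 bases after Cav1 and coding for the hepatocyte growth factor receptor, fell by 0.82 ± 0.11 on the log2 scale (adjusted p = 0.020, limma), from 26.6 and 24.7 CPM in Ctrl to 12.9 and 15.4 CPM in WC1. Both flanking genes thus had fold changes opposite in sign to those of the caveolins.

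Among the cavins, Cavin1 was the most abundant. It encodes the coat protein that is required for caveolae in all tissues. Cavin1 was at 974.5 and 1112 CPM in Ctrl, against 1593 and 1918 CPM in WC1, and it rose by 0.75 ± 0.16 on the log2 scale (adjusted p = 0.038, limma), or 1.68-fold (1.27 to 2.22).

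Cavin2 encodes the phosphatidylserine-binding coat protein also known as serum deprivation response protein. It was at 247.7 and 297.4 CPM in Ctrl, against 476.7 and 612.6 CPM in WC1. Cavin2 rose by 0.99 ± 0.16 on the log2 scale (adjusted p = 0.024, limma), or 1.99-fold (1.49 to 2.65), the largest fold change of the 6 genes.

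Cavin3 encodes a coat protein that binds protein kinase C delta. It was at 166.5 and 208.3 CPM in Ctrl, against 256.3 and 332.5 CPM in WC1, and its lower WC1 library was 1.23 times its higher Ctrl library, the narrowest gap of the 6 genes. The log2 fold change was 0.65 ± 0.17 with a limma adjusted p of 0.060, and the interval of the change was 1.15-fold to 2.12-fold. This interval holds the fold changes of all the other members.

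Ehd2 encodes the ATPase at the caveolar neck. It was at 373.1 and 454.3 CPM in Ctrl, against 716.8 and 849.0 CPM in WC1, without overlap. Ehd2 rose by 0.92 ± 0.15 on the log2 scale (adjusted p = 0.024, limma), or 1.89-fold (1.46 to 2.46).

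**Figure D1:**
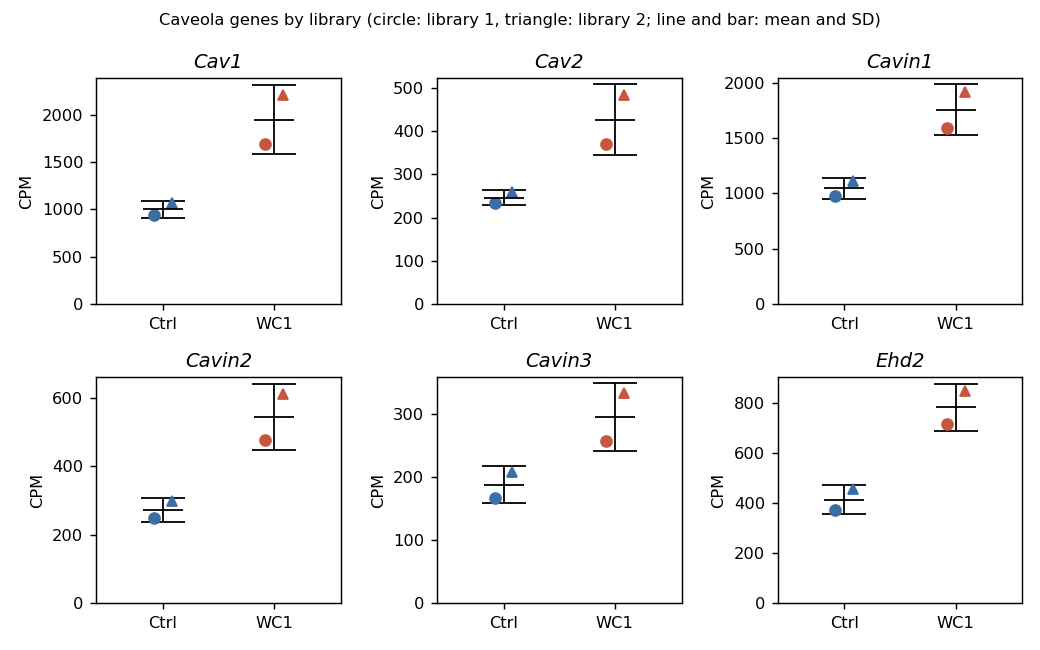
CPM (vertical axis, starting at 0) of the 6 caveola genes in the 2 Ctrl and 2 WC1 libraries, with library 1 as circles, library 2 as triangles and the mean and SD as lines. Each WC1 point lies above both Ctrl points, and for Cav1 the Ctrl libraries are at 935.5 and 1062 CPM and the WC1 libraries at 1692 and 2207 CPM.

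In all 6 genes Ctrl 2 was above Ctrl 1 and WC1 2 was above WC1 1, an order found in 27.6% of all tested genes. The summed markers of adipocytes, endothelial cells and smooth muscle cells and pericytes had the same order. The log2 gap between the Ctrl libraries ran from 0.15 for Cav2 to 0.32 for Cavin3, and that between the WC1 libraries from 0.24 for Ehd2 to 0.39 for Cav2. Together the 6 genes took 0.280% and 0.325% of the recovered reads in Ctrl and 0.505% and 0.656% in WC1. The calls were lost with either Ctrl library left out, as were nearly all calls over all genes. With Ctrl 1 left out, 0 of the 6 genes were called in limma (adjusted p from 0.19 to 0.35, unadjusted p under 0.05 for 3 genes), beside 0.0425% of all tested genes, and with Ctrl 2 left out 0 were called (adjusted p from 0.12 to 0.23, unadjusted p under 0.05 for all 6), beside 0.0851% of all tested genes. Without a filter on low values, Cavin2 and Ehd2 were called and the other members were not. Over all genes 1320 of 18132 were called there, 788 of them higher in WC1, beside 2531 of 14106 in the reported fit. Nothing in the labels says that the libraries came from separate animals, so the p values measure only the spread between these libraries, which may be technical.

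Levels of different members were next compared in TPM. In Ctrl the order was Cav1 (757 ± 72.9 TPM, SD, n = 2), Cavin1 (623 ± 62.3), Cavin3 (351 ± 57.8), Ehd2 (260 ± 37.9), Cav2 (173 ± 13.4) and Cavin2 (171 ± 23.3). Cav2 and Cavin2 overlapped there, and the other neighbours in the order did not. In WC1 the order was Cav1 (1634 ± 341 TPM), Cavin1 (1157 ± 177), Cavin3 (609 ± 125), Ehd2 (543 ± 76.9), Cavin2 (378 ± 75.1) and Cav2 (331 ± 70.6). Here the libraries of Cavin3 and Ehd2 overlapped, as did those of Cavin2 and Cav2. Cav1 was thus the most abundant message of the coat in every library, and Cavin3 held rank 3 per transcript length although it had the lowest CPM of the 6 genes.

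Ratios within a library do not depend on how the library was scaled, and 8 of them were computed in TPM. For 5 ratios the libraries of the groups did not overlap. The CPM of single genes did not overlap for 69.3% of all tested genes, and the share over ratios of all gene pairs was not computed. An exact permutation test cannot give a two-sided p under 0.333 with 2 against 2 libraries, so the ratios are given as values only. The ratio of Cav2 to Cav1 was 0.231 and 0.225 in Ctrl and 0.202 and 0.203 in WC1. That of Cavin1 to Cav1 was 0.820 and 0.825 in Ctrl and 0.741 and 0.684 in WC1, and that of Cavin3 to Cav1 was 0.440 and 0.485 in Ctrl and 0.374 and 0.372 in WC1. These 3 ratios to Cav1 were lower in both WC1 libraries, as were those of 89.1% of all other tested genes. Ratios to Cav1 that overlapped between groups were those of Cavin2 (0.220 and 0.232 in Ctrl, 0.234 and 0.230 in WC1) and of Ehd2 (0.330 and 0.355 in Ctrl, 0.351 and 0.319 in WC1). Among the cavins, Cavin2 relative to Cavin1 was 0.268 and 0.282 in Ctrl and 0.315 and 0.336 in WC1. Cavin3 relative to Cavin2 was 2.00 and 2.09 in Ctrl, against 1.6 and 1.62 in WC1, the widest separation of the 8 ratios at -0.34 on the log2 scale. Cavin3 relative to Cavin1 overlapped between groups. The sum of the 3 cavins over the sum of both caveolins was 1.20 and 1.26 in Ctrl and 1.12 and 1.07 in WC1.

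**Figure D2:**
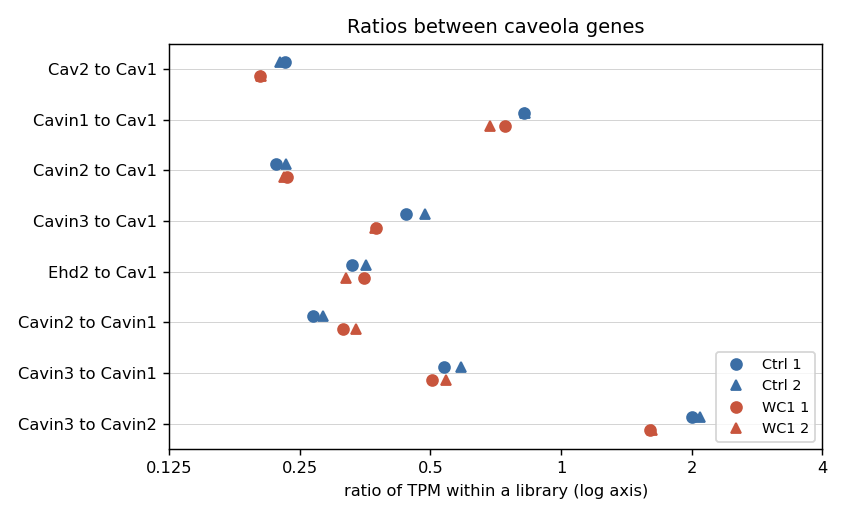
Ratios of TPM between caveola genes within each library (horizontal log axis), with Ctrl in blue, WC1 in red, library 1 as circles and library 2 as triangles. The ratio of Cavin3 to Cavin2 is 2.00 and 2.09 in Ctrl and 1.6 and 1.62 in WC1, whereas the ratio of Cavin2 to Cav1 overlaps between groups.

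The wider machinery of caveolae was then examined in the 26 genes of a list that are reported here. Of these, 24 passed the filter on low values, 4 rose in limma (Ehd3, Slc2a4, Nos3 and Aoc3) and the others were not called. Over all tested genes 17.9% were called in either direction. The median log2 fold change of the 24 genes was -0.03, beside -0.02 for all tested genes. The muscle forms of the coat were near or at 0. Cav3, the muscle caveolin, was at no more than 0.218 CPM and Cavin4, the muscle cavin, at no more than 0.524 CPM in any library, and neither passed the filter.

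In the EHD family, which shares the ATPase fold of Ehd2, 1 of 3 other members was called in limma. Ehd3 was at 11.8 and 13.4 CPM in Ctrl, against 24.8 and 33.3 CPM in WC1, and rose by 1.13 ± 0.16 on the log2 scale (adjusted p = 0.020, limma). Ehd1, a regulator of endosomal recycling, was at 196 and 207 CPM in Ctrl and 203 and 206 CPM in WC1, and its log2 fold change was 0.02 ± 0.07 (adjusted p = 0.83, limma). Ehd4 was at 353 and 324 CPM in Ctrl and 278 and 202 CPM in WC1, a log2 fold change of -0.51 ± 0.17 that was not called (adjusted p = 0.092, limma) but was in DESeq2 (-0.48, adjusted p = 0.020).

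Of the 6 pacsin and dynamin genes, which bend or cut the caveolar neck, 0 were called in limma (2 at an unadjusted p under 0.05) and 0 in edgeR, while DESeq2 called 2, Pacsin3 (log2 fold change 0.74, adjusted p = 0.047) and Dnm1 (-0.38, adjusted p = 0.050). Pacsin2, the F-BAR protein of caveolae outside muscle, had a log2 fold change of -0.03 ± 0.09 and Pacsin3, the muscle form, one of 0.61 ± 0.23 (adjusted p = 0.81 and 0.13, limma). Dnm2, the ubiquitous dynamin that pinches off vesicles, had a log2 fold change of -0.04 ± 0.08 (adjusted p = 0.77, limma), and its 95% interval ran from -0.25 to 0.18. Dnm1, the dynamin best known from neurons, was at 77.6 and 88.0 CPM in Ctrl and 70.1 and 55.7 CPM in WC1, without overlap, a log2 fold change of -0.40 ± 0.13 that was not called (adjusted p = 0.10, limma). Pacsin1 and Dnm3 overlapped between groups, with log2 fold changes of -0.11 ± 0.16 and 0.14 ± 0.15 (adjusted p = 0.65 and 0.55, limma). Of 7 regulators, 0 were called in limma (2 at an unadjusted p under 0.05) and 0 in edgeR, while DESeq2 called 1, Prkcd (-0.39, adjusted p = 0.035). They were Flna, which ties caveolae to actin, Src, Fyn and Abl1, kinases of caveolin-1 and of caveolar traffic, Prkca and Prkcd, protein kinases C bound by cavins, and Ror1, a receptor that holds cavin-1 and caveolin-1 together. Their log2 fold changes in limma ran from -0.42 for Prkcd to 0.30 for Prkca. Some of these genes had no overlap between groups, such as Src at 30.2 and 27.8 CPM in Ctrl and 25.4 and 21.9 CPM in WC1.

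Proteins known to reside in caveolae gave 3 calls among 6 genes. Slc2a4, the insulin-responsive glucose transporter GLUT4, was at 24.8 and 32.4 CPM in Ctrl, against 47.6 and 72.6 CPM in WC1, and rose by 1.03 ± 0.23 on the log2 scale (adjusted p = 0.044, limma). Nos3, the endothelial nitric oxide synthase that caveolin-1 binds, was at 18.5 and 24.6 CPM in Ctrl, against 43.5 and 66.1 CPM in WC1, and rose by 1.29 ± 0.23 (adjusted p = 0.029, limma). Aoc3, an amine oxidase of adipocytes and vessels, was at 417 and 526 CPM in Ctrl, against 887 and 1118 CPM in WC1, and rose by 1.09 ± 0.18 (adjusted p = 0.024, limma). The insulin receptor gene Insr was at 59.3 and 60.2 CPM in Ctrl and 68.9 and 76.0 CPM in WC1, a log2 fold change of 0.27 ± 0.08 that was not called (adjusted p = 0.070, limma). Cd36, the fatty acid transporter, was at 6237 and 5977 CPM in Ctrl and 5400 and 4909 CPM in WC1, its log2 fold change being -0.25 ± 0.24 (adjusted p = 0.49, limma). Plvap, which forms the diaphragm of endothelial caveolae, overlapped between groups at 73.4 and 84.5 CPM in Ctrl and 68.3 and 86.7 CPM in WC1. Insr, Cd36 and Plvap were thus not called in limma or edgeR, while DESeq2 called Insr (0.30, adjusted p = 0.046).

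Flotillins scaffold membrane domains that are separate from caveolae. Flot1 and Flot2 had log2 fold changes of 0.18 ± 0.10 and 0.03 ± 0.07 (adjusted p = 0.23 and 0.82, limma).

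**Figure D3:**
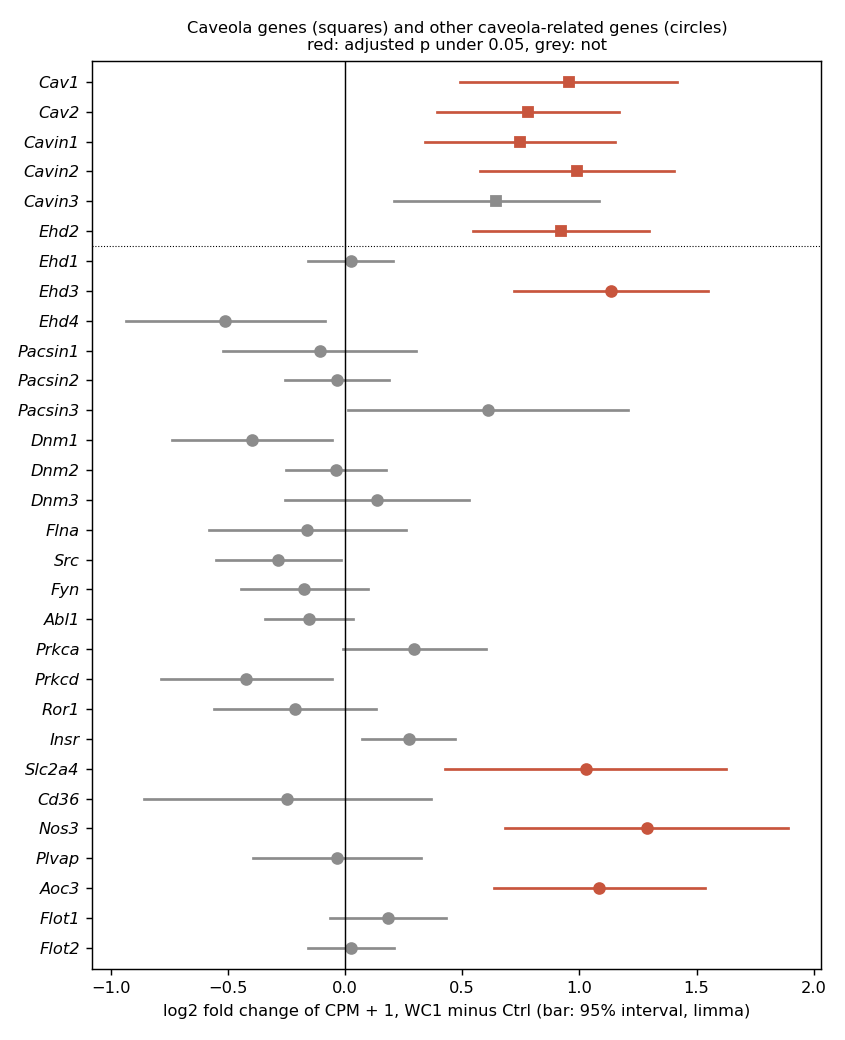
Log2 fold changes of CPM + 1, WC1 minus Ctrl (horizontal axis), with 95% limma intervals, for the 6 caveola genes (squares) and the 24 tested genes of the wider list (circles), red where the adjusted p was under 0.05. Members run from 0.65 for Cavin3 to 0.99 for Cavin2, while the wider list runs from -0.51 for Ehd4 to 1.29 for Nos3.

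The cells that carry most caveolae were followed by marker lists that hold none of the 6 genes. Fewer cells of a type and less RNA per cell cannot be told apart in bulk tissue. Of 15 adipocyte markers 12 rose and the others were not called (median log2 fold change 1.03). Lep, which encodes leptin, was at 1408 and 1739 CPM in Ctrl and 3357 and 4679 CPM in WC1, and rose by 1.34 ± 0.24 on the log2 scale (adjusted p = 0.028, limma). Fabp4, the adipocyte fatty acid binding protein, was at 5375 and 5561 CPM in Ctrl and 8661 and 10499 CPM in WC1, a log2 fold change of 0.80 ± 0.28 that was not called (adjusted p = 0.11, limma). The summed level of the adipocyte markers was 12832 and 14627 CPM in Ctrl and 23243 and 29642 CPM in WC1. Of 13 endothelial markers 10 rose and the others were not called (median 1.01), with the sum at 656 and 739 CPM in Ctrl and 1302 and 1691 CPM in WC1. Cdh5, the endothelial cadherin, rose by 1.38 ± 0.17 and Pecam1, the endothelial adhesion molecule CD31, by 1.01 ± 0.16 on the log2 scale (adjusted p = 0.016 and 0.024, limma). Of 12 smooth muscle and pericyte markers 7 rose and the others were not called (median 0.92), with sums of 607 and 644 CPM in Ctrl and 1001 and 1162 CPM in WC1. Mcam rose by 1.11 ± 0.14 (adjusted p = 0.018, limma), and Pdgfrb, the pericyte growth factor receptor, had a log2 fold change of 0.05 ± 0.07 (adjusted p = 0.66, limma). No marker of these lists was at 0 in any library. The part of these cell types in the result was not tested.

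Macrophage and fibroblast markers gave calls in the lower direction. Of 12 macrophage markers 5 fell and the others were not called (median -0.68), with sums of 13121 and 12003 CPM in Ctrl and 7839 and 5497 CPM in WC1. Lyz2, which encodes lysozyme, fell by 1.25 ± 0.25 on the log2 scale (adjusted p = 0.036, limma), and Cd68 had a log2 fold change of -0.67 ± 0.23 (adjusted p = 0.10, limma). Of 12 fibroblast and progenitor markers 4 fell and the others were not called (median -0.34), with sums of 10536 and 10213 CPM in Ctrl and 9428 and 7323 CPM in WC1. The matrix proteoglycan gene Dcn fell by 0.60 ± 0.13 (adjusted p = 0.038, limma), and the collagen gene Col3a1 had a log2 fold change of -0.36 ± 0.25 (adjusted p = 0.34, limma). Of the 6 mesothelial markers measured none was called in limma (0 at an unadjusted p under 0.05), edgeR or DESeq2. Their sum was 122 and 90.6 CPM in Ctrl and 60.7 and 163 CPM in WC1, and Upk3b and Msln were at their highest in WC1 2. None of 7 T, NK and B cell markers was called in limma (1 at an unadjusted p under 0.05) or edgeR, and DESeq2 called 2, Cd79a and Ms4a1. Their sums were 11.2 and 6.91 CPM in Ctrl and 8.24 and 24.0 CPM in WC1. The B cell gene Cd79a was at 0.994 and 0.621 CPM in Ctrl and 2.02 and 9.64 CPM in WC1, and the T cell gene Cd4 at no more than 2.75 CPM in any library. Skeletal muscle markers summed to 7.09 and 9.34 CPM in Ctrl and 18.5 and 18.1 CPM in WC1, nearly all of it from Acta1, which rose by 1.18 ± 0.16 (adjusted p = 0.020, limma), while Mylpf was at no more than 0.614 CPM.

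The 6 genes were next set against the markers within each library. The summed CPM of the 6 genes over that of the adipocyte markers was 0.228 and 0.232 in Ctrl and 0.220 and 0.216 in WC1. Per 1000 CPM of adipocyte markers, Cav1 was at 72.9 and 72.6 CPM in Ctrl, against 72.8 and 74.5 CPM in WC1, and Ehd2 at 29.1 and 31.1 CPM in Ctrl and 30.8 and 28.6 CPM in WC1. On this scale the groups overlapped for both genes. Cavin2 was at 19.3 and 20.3 CPM in Ctrl and 20.5 and 20.7 CPM in WC1, just above without overlap. Cav2 (18.2 and 17.7 against 15.9 and 16.3 CPM in WC1), Cavin1 (75.9 and 76.0 against 68.6 and 64.7 CPM) and Cavin3 (13 and 14.2 against 11 and 11.2 CPM) were lower in both WC1 libraries. Over all tested genes 89.0% were lower in both WC1 libraries per adipocyte marker CPM and 3.30% were higher. Fabp4 weighs most in this marker sum, at 5375 of 12832 CPM in Ctrl 1 and 10499 of 29642 CPM in WC1 2. Its log2 fold change of 0.80 was below the list median of 1.03, so the overlaps and small gaps on this scale may depend on this marker. A sum without Fabp4 was not tested. Over the endothelial markers the summed CPM of the 6 genes was 4.47 and 4.59 in Ctrl and 3.92 and 3.79 in WC1, and each of the 6 genes was lower in both WC1 libraries on that scale. The endothelial sum itself was 2.15 times higher in WC1, and 91.8% of all tested genes were lower in both WC1 libraries on that scale, so this count says nothing particular to the 6 genes. Over the smooth muscle and pericyte markers it was 4.83 and 5.27 in Ctrl and 5.10 and 5.51 in WC1, with overlap. Over macrophage markers it was 0.223 and 0.283 in Ctrl and 0.651 and 1.17 in WC1.

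**Figure D4:**
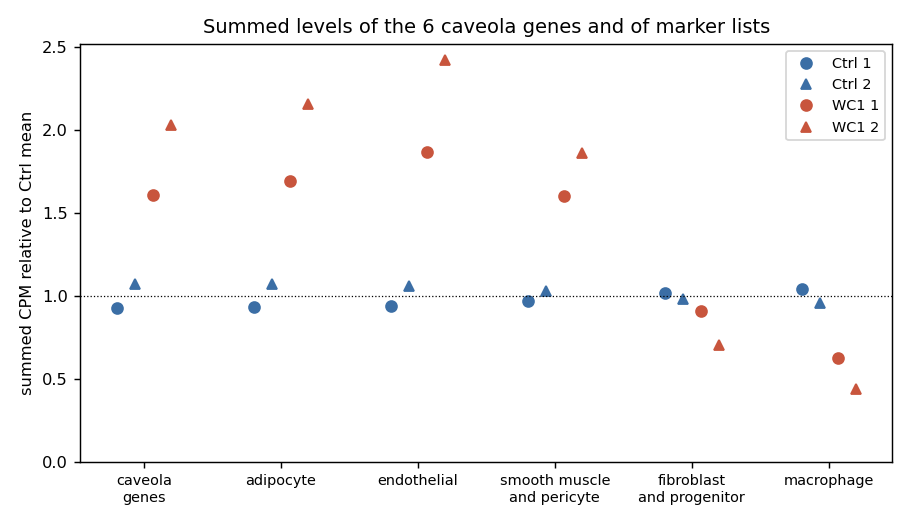
Summed CPM of the 6 caveola genes and of 5 marker lists in each library relative to the mean of the Ctrl libraries (vertical axis, starting at 0). The caveola genes stand at 1.61 and 2.03 in WC1 1 and WC1 2, the adipocyte list at 1.69 and 2.16, the endothelial list at 1.87 and 2.42 and the macrophage list at 0.624 and 0.438.

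Finally, genes with the profile nearest to Cav1 and to Cavin1 were listed, by the Euclidean distance between log2(CPM + 1) values centred on their mean over the 4 libraries, among 9459 genes of at least 10 CPM on average. Nearest to Cav1 were Hip1r, a clathrin and actin adaptor (distance 0.014), Mpdz, a scaffold of cell junctions (0.031), and C1rl, a complement C1r-like protease (0.054). Their log2 fold changes were 0.96, 0.98 and 0.92, compared to 0.95 for Cav1. Nearest to Cavin1 were Mccc1, a subunit of a leucine degradation enzyme (0.024), Hspg2, the basement membrane proteoglycan perlecan (0.026), and Bmp6, a bone morphogenetic protein (0.032). Of the other members, Cavin2 was the nearest to Cav1 (0.069) and Cav2 the nearest to Cavin1 (0.098). With 4 libraries of which 2 differ by group, many genes share such a profile, and 389 genes had a larger fold change than each of the 6 caveola genes.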

How the data were processed

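Processed RNA-seq data of 4 libraries were used, 2 Ctrl and 2 WC1, grouped and numbered by the sample titles. The authors deposited a pair of matrices of 24421 genes. In the matrix named CPM, the authors divided reads by a library size rescaled per library (columns sum to between 97.6% and 105% of what plain CPM would), so it is a deposited signal proportional to reads. All nonzero values (100%) were whole reads to within 0.01 read. In the other matrix the authors deposited TPM. The submitters' processing notes list fastp, HISAT2, StringTie and mm10, with the read counter, strand setting and annotation not given in the sources used here. Recovered totals were 71658062, 90965297, 61655738 and 61465029 reads, and 3 reads, the level up to which a gene at 0 may be expressed, came to between 0.0345 and 0.0492 CPM, for counting error only.

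The 14106 genes that reached 0.5 CPM in 2 or more libraries were fitted with limma 3.58.1 in R 4.3.3 on log2(CPM + 1), with variances moderated along the mean-variance trend, and tested two-sided. Because of the added 1, changes of low genes are understated. Alternatives, which included edgeR 4.0.16 and DESeq2 1.42.0 on recovered reads, are given in the closing section. The reported limma fit, edgeR and DESeq2 were also run on simulated reads, and the other alternatives were not. Symbols were matched through RefSeq synonyms. The 6 genes, the lists and the tests were chosen with earlier results of these data known. Named genes were the 6 members, the wider list, the 2 most abundant genes of each marker list, and the 3 genes nearest to Cav1 and to Cavin1 (predicted genes skipped). The neighbours Tes and Met and the antisense genes were chosen by position, after the data had been seen. A gene of the wider list and a lymphocyte marker that had been listed are not reported here, a choice that did not rest on their values, and counts of those lists cover the reported genes only. Of 89 listed markers 88 were in the matrices. Protein sequences were not used here.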

Additional observations from a re-analysis of the deposited data

How the results depend on the processing

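The 6 genes were higher in WC1 under all 14 alternatives. The number called was 5 with either pseudocount, at a mean of at least 5 CPM, in the TPM matrix, with quantile normalization, with median-of-ratios scaling and in edgeR, and 6 in DESeq2, where Cavin3 passed at a log2 fold change of 0.67. The TPM matrix moved the median of all genes up by 0.12, and relative to that median the fold changes ran from 0.69 for Cavin3 to 1.03 for Cavin2. Without a filter, 2 of the 6 genes were called, and Cav1 (0.95, limma adjusted p = 0.063), Cav2 (0.78, 0.059) and Cavin1 (0.75, 0.076) lost their calls at the same fold changes. There 2 genes of the wider list were called, and 1320 of all genes, 788 of them higher. The cause was not tested. DESeq2 called 3861 genes and 9 of the wider list, beside 4 in the reported fit.

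With 1 library left out, the spread rests on the other group alone and the remaining lone library is taken to vary as much. Log2 fold changes then ranged from 0.76 to 1.15 (Cav1), 0.59 to 0.98 (Cav2), 0.61 to 0.88 (Cavin1), 0.81 to 1.17 (Cavin2), 0.46 to 0.83 (Cavin3) and 0.78 to 1.06 (Ehd2). The number of the 6 genes called ranged from 0 without Ctrl 1 or Ctrl 2 to 6 without WC1 1, and was 5 without WC1 2. The number called ranged from 0 to 11 in the wider list, from 6 to 5172 over all genes and from 2 to 2424 for genes higher in WC1, the highest without WC1 1.

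The titles number the libraries 1 and 2 in both groups, and nothing in the labels says that a number pairs mice. Gaps between library 1 and library 2 in Ctrl and in WC1 were correlated at r = 0.19 across 14106 genes, which with 2 pairs does not show a pairing. In a fit with a replicate block, 3266 genes were called over all, 1769 of them higher in WC1 (2531 and 1443 without the block), and all 6 genes were, Cavin3 at 0.65 (adjusted p = 0.010, limma), with 7 genes of the wider list.

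Among the values of wider-list genes under the alternatives, 293 kept direction and call, 10 lost a call, 15 gained one and 16, all of genes not called, changed sign: Pacsin2 (0.11 in TPM, 0.010 with quantile normalization), Dnm2 (0.11 and 0.044) and Plvap (0.11 and 0.0023), and others with a library left out. There the log2 fold change ranged from -0.013 to 0.060 for Ehd1, -0.25 to 0.035 for Pacsin1, -0.11 to 0.045 for Pacsin2, -0.11 to 0.035 for Dnm2, -0.042 to 0.31 for Dnm3, -0.34 to 0.024 for Flna, -0.20 to 0.14 for Plvap and -0.028 to 0.079 for Flot2.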
